A study of Homo sapiens with 4 samples.

Results

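The cathepsins are proteases found mainly in the lysosome, and 10 of their genes are described here: CTSB, CTSC, CTSF, CTSH, CTSL, CTSO, CTSS and CTSZ, which encode cysteine proteases, CTSD, which encodes an aspartic protease, and CTSA, which encodes a serine carboxypeptidase. They are 10 of the 60606 genes in the count table. CTSB was chosen by its change in the very comparison reported below, where it had the second highest log2 fold change among the genes called, and the list around it was drawn up with the results of these libraries known. The values of the 10 genes in this comparison are therefore a description, without a test. CTSK, CTSV and CTSW also had counts but are not among the 10, and their values are given for completeness.

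RNA was measured in DaroR cells, a darolutamide-resistant derivative of LNCaP, an established line from a human prostate cancer. Darolutamide is an antiandrogen, a drug that blocks androgen action, and the derivative was obtained by long culture of LNCaP in rising amounts of it. The resistant cells were transfected either with control siRNA (siControl, 2 libraries) or with a pool of siRNAs against the long non-coding RNA LOC730101 (siLOC730101, 2 libraries), and poly(A) RNA was sequenced. Both groups are the same single resistant line grown in RPMI medium with serum, and according to the study DaroR cells were kept in medium with darolutamide, so no group here stands for cells without the drug. Nothing here separates what belongs to the line from what belongs to darolutamide resistance, and the parental LNCaP cells were not analysed here. The comparison asks which transcripts differ when LOC730101 is depleted.

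Cathepsins are made as inactive proenzymes in the endoplasmic reticulum, tagged with mannose 6-phosphate in the Golgi, carried to endosomes and lysosomes by mannose 6-phosphate receptors, and activated there by removal of the propeptide at acidic pH. Cystatins hold the cysteine cathepsins in check when they reach the cytosol or the outside of the cell. Many tumour cells also secrete cathepsins, and in prostate cancer cathepsin B is known chiefly for degrading matrix and for taking part in proteolytic cascades at the cell surface.

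Library totals ranged from 39213498 to 53368158 counts. The counts of LOC730101 served to check the labels: it stood at 47.4 and 50.6 normalised counts per 1000000 (CPM) in the siControl libraries and at 15.4 and 17.9 CPM in the siLOC730101 libraries, a log2 fold change of -1.56 (SE 0.12). The 5 markers of luminal prostate cells KLK3, KLK2, FOLH1, TMPRSS2 and HOXB13 were expressed, with a summed level of 4306 to 4899 CPM in siControl and 4602 to 4836 CPM in siLOC730101, and none was called different (edgeR, with 1 at an unadjusted p under 0.05). Of 8 macrophage markers, macrophages being rich in cathepsins B and S, PTPRC, C1QA, C1QB and TYROBP had 0 counts in every library. The sum over the list was 1.44 to 1.54 CPM in siControl and 0.685 to 1.61 CPM in siLOC730101. In each library most of that sum was CSF1R, with 20 to 67 counts. Of 6 fibroblast markers, COL1A2 and LUM had 0 counts, and the list summed to 16.0 to 20.5 CPM in siControl and 16.5 to 17.3 CPM in siLOC730101. Most of this sum was COL1A1 in each library, with 451 to 797 counts. COL3A1 (111 to 175 counts) and PDGFRB (68 to 132 counts) were detected in every library too.

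CTSB encodes cathepsin B, a cysteine protease that acts both as an endopeptidase and as a dipeptidyl carboxypeptidase. Its transcript was the cathepsin RNA that differed most between the groups. It stood at 8.10 and 11.02 CPM in the siControl libraries and at 42.2 and 36.03 CPM in the siLOC730101 libraries, from 438 and 516 counts against 1735 and 1368 counts. Each siLOC730101 library held more than either siControl library, and the groups were far apart compared with the spread within them (9.56 ± 2.07 CPM against 39.1 ± 4.38 CPM, SD, n = 2 each). The mean was 4.09-fold higher after siLOC730101, and edgeR gave a log2 fold change of 2.04 (SE 0.15). Leaving out each library in turn moved this value between 1.83 and 2.27. As CTSB was chosen on this contrast, nothing is read from the gap between the groups or from this range. In bulk RNA a larger number of cells that express a gene and more RNA per cell cannot be told apart. For any 1 gene, 2 libraries against 2 allow an exact permutation p (two-sided) of 0.333 at the lowest, and the labels do not say that the libraries came from separate cultures, so the p-values given for other genes measure only the spread between these libraries.

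Of the 10 genes, 1 (CTSB) was called higher and 0 were called lower, where called means an adjusted p below 0.05 in edgeR. Over the 19349 genes tested, 55 were called in either direction (0.284%) and 41 were called higher (0.212%). By size of the log2 fold change CTSB stood behind UQCRC2 (4.63) and ahead of ARHGEF26 (1.70) and CNFN (1.33). The number of genes called moved as single libraries were left out, from 77 higher without siLOC730101 replicate 2 to 923 higher without siLOC730101 replicate 1. Since CTSB was chosen on this contrast, nothing is read from its being among them.

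**Figure D1:**
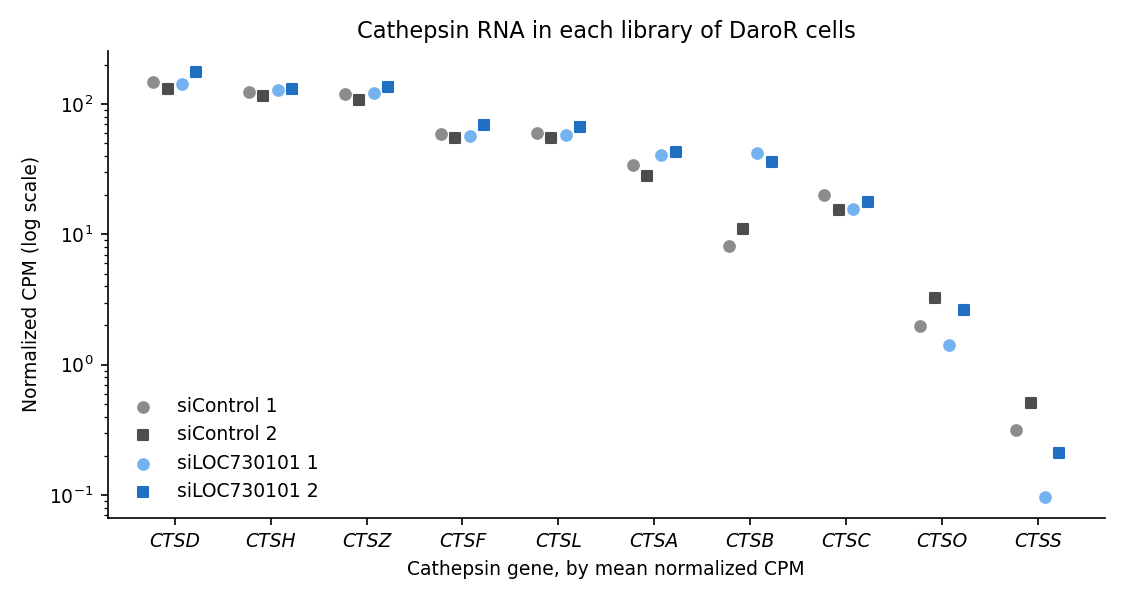
The level of each of the 10 cathepsin genes in each of the 4 libraries, in CPM on a log axis, with siControl and siLOC730101 libraries in separate colours. The siLOC730101 points of CTSB (36.03 and 42.2 CPM) sit well above its siControl points (8.10 and 11.02 CPM), whereas the points of most other genes lie close together.

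Of the 9 other cathepsins, none was called in edgeR or in DESeq2, and their differences were small beside that of CTSB except in CTSS, which had few counts. DESeq2 gave an adjusted p for 9525 of 31960 genes, so genes with few counts could not be called there. No p-value is quoted for the 9 other cathepsins, because the list was chosen with these values in view. Their log2 fold changes ran from -1.41 (CTSS) to 0.42 (CTSA), 6 above 0 and 3 below. In some other settings more of them were called, while more genes were called in all. Without siLOC730101 replicate 1, where CTSA (0.47), CTSD (0.34) and CTSZ (0.26) were called too, 4.3% of all genes tested were called higher. That fit has 1 siLOC730101 library, which is assumed to vary like the siControl pair that alone gives the spread. CTSA was also called without siControl replicate 1 (0.566% of all genes called higher), where the spread comes from the siLOC730101 pair alone, with a replicate block (2.51%) and with every gene tested that had at least 1 count (1.01%).

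Cathepsin L (CTSL), a broad endopeptidase, was at 59.6 and 54.8 CPM in siControl and at 57.8 and 67.0 CPM in siLOC730101, so that the groups overlapped (log2 fold change 0.12, SE 0.099). Cathepsin H (CTSH), an aminopeptidase, was at 123 and 115 CPM in siControl and at 129 and 131 CPM in siLOC730101, without overlap but with a small difference (0.12, SE 0.079). Cathepsin Z (CTSZ), a carboxypeptidase also called cathepsin X, was at 119 and 108 CPM in siControl and at 122 and 135 CPM in siLOC730101 (0.18, SE 0.086). In CTSH and CTSZ both siLOC730101 libraries were the higher ones, and the differences were far smaller than that of CTSB. Part of the exon sequence of CTSZ (31.7% of its bases) is shared with NELFCD, which itself had at most 5 counts in a library.

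Cathepsin F (CTSF), a lysosomal endopeptidase with an unusually long propeptide, was at 59.0 and 55.1 CPM in siControl and at 57.1 and 69.5 CPM in siLOC730101 (log2 fold change 0.15, SE 0.10). Its higher mean after siLOC730101 came from the second library, and without that library the value was -0.00099. Cathepsin C (CTSC), a dipeptidyl peptidase that activates granule proteases in immune cells, was at 19.998 and 15.3 CPM in siControl and at 15.7 and 17.6 CPM in siLOC730101 (-0.085, SE 0.15). Both groups of CTSC overlapped, and its value ranged from -0.26 to 0.12 as single libraries were left out, above 0 without siControl replicate 1 and without siLOC730101 replicate 1.

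The remaining cysteine cathepsins were weakly expressed. Cathepsin O (CTSO), a little-studied member, was at 1.998 and 3.25 CPM in siControl and at 1.41 and 2.63 CPM in siLOC730101, with overlap (log2 fold change -0.37, SE 0.39). The CTSO value lay above 0, at 0.019 or less, without siControl replicate 2 or without siLOC730101 replicate 1. Cathepsin S (CTSS), which trims the invariant chain in antigen-presenting cells, was counted 17 and 24 times in siControl, against 4 and 8 times in siLOC730101. Its siLOC730101 libraries were the lower ones, but the counts were too few for the size to be read closely (-1.41, SE 1.03). CTSS also passed the expression filter, which asked for 0.23 CPM in 2 libraries, only through its siControl libraries, so a lower value after siLOC730101 was built into its entry among the genes tested.

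Cathepsin D (CTSD), the aspartic protease that degrades much of the bulk protein in lysosomes, was at 149 and 131 CPM in siControl and at 142 and 176 CPM in siLOC730101. The groups overlapped (log2 fold change 0.19, SE 0.099). Of the CTSD exon bases, 48.0% are shared with 3 other annotated genes (ENSG00000235027, ENSG00000250644 and ENSG00000229512), which had at most 15 counts in a library.

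Cathepsin A (CTSA), the serine carboxypeptidase that also shields the lysosomal enzymes beta-galactosidase and neuraminidase 1, had the second highest log2 fold change of the 10. It stood at 34.2 and 28.01 CPM in siControl and at 40.6 and 42.8 CPM in siLOC730101. Both siLOC730101 libraries were the higher ones (31.1 ± 4.35 CPM against 41.7 ± 1.56 CPM, SD, n = 2 each; fold 1.34), and the log2 fold change was 0.42 (SE 0.12). It was not called, and the value ran from 0.29 to 0.57 as each library was left out. Of the CTSA exon bases, 21.5% are shared with NEURL2, PLTP and an antisense gene (ENSG00000271984), whose counts were at most 27 in a library. The command that counted the reads had no strand option, and featureCounts at its defaults leaves out reads that overlap more than 1 gene. Reads in the shared bases of CTSA, CTSD and CTSZ may thus be missing. The low counts of the overlapping genes do not show how many.

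The groups did not overlap in 5 of the 10 genes, of which CTSB, CTSA, CTSH and CTSZ were higher after siLOC730101 and CTSS was lower. Over all genes tested the groups did not overlap in 41.7%, and in 21.3% they did not overlap with siLOC730101 higher. Of the 10 genes, 7 had a log2 fold change above 0 (70.0%), against 49.6% of all genes tested. The median over the 10 was 0.14, and it was 0.12 without CTSB, against -0.0021 over all genes. Without CTSB, chosen on this contrast, and CTSS, which entered through siControl alone, 6 of 8 were above 0 and the groups did not overlap in 3 of 8 (37.5%). The 3 other cathepsins tested, CTSK, CTSV and CTSW, which are outside the 10, were all below 0. Nothing is read from these shares, since the 10 were listed with the values known.

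**Figure D2:**
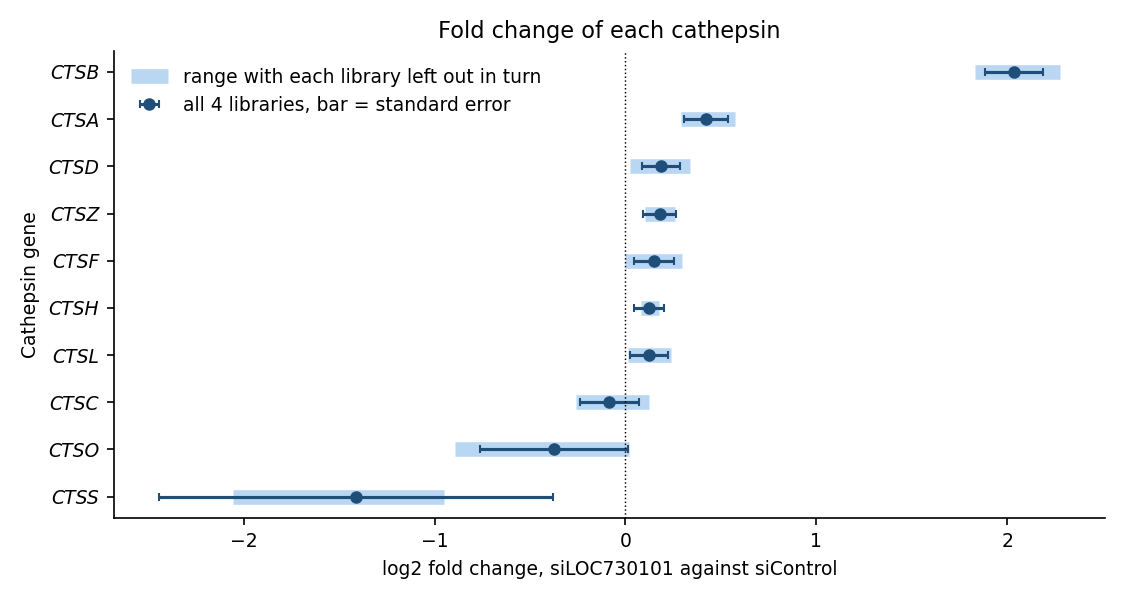
The log2 fold change of each of the 10 cathepsin genes, siLOC730101 against siControl, with bars for the standard error of the edgeR fit and pale bands for the range of the values obtained when each library was left out. CTSB stands at 2.04 and the others, apart from CTSS at -1.41, between -0.37 and 0.42.

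Levels can be set side by side between genes only after division by length. Per kilobase of annotated exon the order in siControl was CTSD (24.5 ± 2.15 CPM per kilobase), CTSF (13.4 ± 0.655), CTSL (9.36 ± 0.557), CTSH (8.65 ± 0.421), CTSZ (5.85 ± 0.392), CTSA (3.60 ± 0.504), CTSB (0.907 ± 0.196), CTSC (0.710 ± 0.134), CTSO (0.332 ± 0.112) and CTSS (0.060 ± 0.020), all as mean ± SD with n = 2. In siControl CTSB and CTSC were neighbours whose libraries overlapped, and no other pair of neighbours did. CTSB stood at 0.769 and 1.05 CPM per kilobase in siControl and at 4.01 and 3.42 CPM per kilobase in siLOC730101. In siLOC730101 CTSB lay on this scale between CTSA (4.83 ± 0.180) and CTSC (0.670 ± 0.053), and it was the seventh of the 10 in both groups. The siLOC730101 libraries of CTSL and CTSH overlapped, and those of no other neighbours in the order did. The exon length of the table joins the exons of every annotated transcript, which makes CTSB, with 10541 bases, longer than its main transcript. It also includes the bases that CTSA, CTSD and CTSZ share with other genes, where reads may have been left out. Their levels per kilobase may therefore be too low. The order depended on the length used.

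Per kilobase of the MANE Select transcript, an agreed reference transcript, the order in siControl was CTSZ (75.5 ± 5.06 CPM per kilobase), CTSD (68.1 ± 5.97), CTSH (55.5 ± 2.701), CTSL (34.6 ± 2.06), CTSF (27.9 ± 1.36), CTSA (16.7 ± 2.34), CTSC (9.44 ± 1.78), CTSB (2.56 ± 0.553), CTSO (0.903 ± 0.304) and CTSS (0.105 ± 0.036). CTSZ thus moved from the fifth place to the top, where its libraries overlapped those of CTSD in both groups, and CTSF moved from the second place to the fifth. On this scale CTSB stood at 2.17 and 2.95 in siControl, below CTSC, and at 11.3 and 9.65 in siLOC730101 (10.5 ± 1.17), a little above CTSC (8.91 ± 0.708) and well below CTSA (22.4 ± 0.838).

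As a share of the summed level of the 10 genes per kilobase of exon, CTSB made up 1.09% and 1.63% in the siControl libraries and 5.48% and 4.06% in the siLOC730101 libraries. The mean share was 1.36% ± 0.381 in siControl and 4.77% ± 1.003 in siLOC730101 (SD, n = 2 each), a difference of 3.41 percentage points. CTSB remained a small part of the sum in both groups, and CTSD alone was several times higher. Without division by length the sum over the 10 genes was 547.9 ± 36.4 CPM in siControl and 642.8 ± 49.1 CPM in siLOC730101, 17.3% higher, and without CTSB it was 538.3 ± 38.5 CPM and 603.7 ± 53.4 CPM, 12.1% higher. The sums without CTSB nearly met between the groups, at 511.1 and 565.5 CPM in siControl and 565.9 and 641.5 CPM in siLOC730101. Per kilobase of exon the groups overlapped in this sum, at 69.9 and 63.2 in siControl and 69.1 and 80.7 in siLOC730101.

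**Figure D3:**
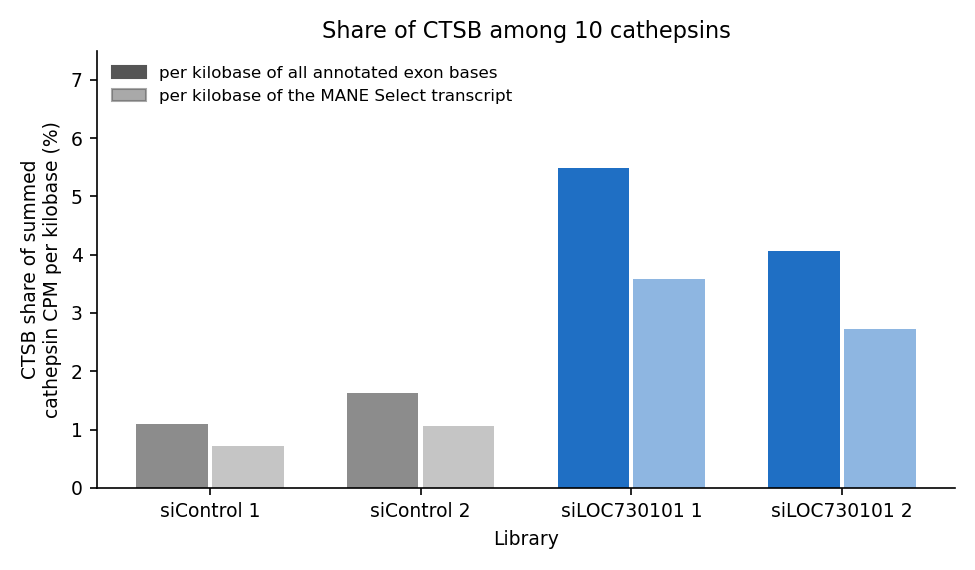
The share of CTSB in the summed level per kilobase of exon of the 10 cathepsin genes, in percent, for each library, with full bars for the annotated exon length and pale bars for the MANE Select length. By exon length the siControl libraries (grey) are at 1.09% and 1.63% and the siLOC730101 libraries (blue) at 5.48% and 4.06%, and by MANE Select length at 0.710% and 1.07% against 3.59% and 2.73%.

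CTSK, CTSV and CTSW, outside the 10, gave lower means after siLOC730101 and were not called (edgeR, adjusted p = 0.741, 0.844 and 0.642). The siControl libraries had larger totals, so raw counts overstate these falls. CTSK, the collagen-degrading cathepsin of osteoclasts, had 244 and 230 counts against 163 and 142 counts. In CPM it was at 4.51 and 4.91 against 3.97 and 3.74 (log2 fold change -0.29). CTSV, a close relative of CTSL, had 335 and 258 counts against 204 and 204 counts. In CPM it was at 6.20 and 5.51 against 4.97 and 5.37 (log2 fold change -0.18). CTSW, a cathepsin of cytotoxic lymphocytes, had 16 and 22 counts against 6 and 4 counts (log2 fold change -1.58, SE 1.06). Like CTSS it passed the expression filter through siControl alone. CTSE and CTSG had 0 counts in every library, which allows up to 0.0555 to 0.0790 CPM if 3 counts are taken as the limit, a limit that covers counting error only. Among 7 CTSL pseudogenes, whose reads the counting could have split from those of CTSL, the highest count in a library was 16 (CTSLP3), against 2376 to 3224 counts of CTSL itself.

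Promoter sequence was read for the members because TFEB and TFE3, transcription factors of lysosomal genes, bind the palindrome CACGTG, the core of their E-box. RefSeq promoters (GRCh38.p14, 250 bases before to 50 after the start) were found for 7 of the 10 members (not for CTSB, CTSO and CTSS), and both strands were covered by the palindrome. It stood in CTSA, CTSD and CTSF, and the stretches that hold it are shown with the motif in capitals, because these members differ in function and catalytic class but share it.
CTSA, chr20:45891269-45891339, plus strand: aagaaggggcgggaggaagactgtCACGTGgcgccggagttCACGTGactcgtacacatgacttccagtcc
CTSD, chr11:1763945-1763998, minus strand: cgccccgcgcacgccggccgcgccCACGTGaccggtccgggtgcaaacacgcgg
CTSF, chr11:66568628-66568753, minus strand: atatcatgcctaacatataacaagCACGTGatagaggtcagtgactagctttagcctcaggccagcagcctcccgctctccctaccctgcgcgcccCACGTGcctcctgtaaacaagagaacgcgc

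The motif began 42 and 25 bases before the start of CTSA, 47 bases before that of CTSD, and 123 and 51 bases before that of CTSF. The longer form TCACGTGA, which contains it, was present 1 time in CTSA and not in CTSD or CTSF. CTSC, CTSH, CTSL and CTSZ held no CACGTG in this window. Of 35116 promoters of the same length 7.26% held CACGTG and 0.980% held TCACGTGA. The log2 fold changes of the 3 genes with the motif were 0.42 (CTSA), 0.19 (CTSD) and 0.15 (CTSF), and those of the 4 without it were -0.085 (CTSC), 0.12 (CTSH), 0.12 (CTSL) and 0.18 (CTSZ). A match of letters is a description and not a site that is used.

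LOC730101 was studied together with the microRNA miR-1-3p, so the 3′ UTRs of the members were searched for its seed match. The mature sequence (RefSeq) is shown with the seed, bases 2 to 8, in capitals.
hsa-miR-1-3p: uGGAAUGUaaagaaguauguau
The match of 7 bases, ACATTCC, was in none of the 10 MANE Select 3′ UTRs (GRCh37), and it was in 11.9% of 18645 such UTRs. The match of 6 bases, CATTCC, which the longer match contains, was found once each in CTSB and CTSF and in 33.2% of all UTRs. The CTSF match is shown in capitals, since CTSF and CTSB are the members that hold it.
CTSF, chr11:66331223-66331243, minus strand: tccctgcacccCATTCCcacc

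The CTSF match lies at base 172 of a 3′ UTR of 469 bases. The CTSB match lies in a 3′ UTR of 2601 bases. CTSB was 4.09-fold higher in mean CPM, while the CTSF libraries overlapped between the groups. MicroRNA levels were not measured by poly(A) sequencing. The paper reports separately that the microRNA searched for here was significantly higher in DaroR cells after the knockdown. It proposes that more of this microRNA lowers the RNA of its targets, whereas CTSB was higher. Whether the microRNA acts on CTSB or CTSF was not tested.

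The genes that inhibit, carry, mature or regulate the cathepsins, or work beside them at the cell surface, were described as 5 lists of 55 genes, of which 35 were tested. None was called by edgeR in either direction (6 had an unadjusted p under 0.05, as did 10.8% of all genes tested). DESeq2 gave an adjusted p for 26 of the list genes and called CSTB and DPP7 higher and none lower, against 2.46% called higher of the 9525 genes with an adjusted p. Without siLOC730101 replicate 1, in the fit with 1 siLOC730101 library in which 4.3% of all genes were called higher, 4 of the list genes were (CSTB, CST3, DPP7 and GNPTG). With a replicate block, in which 2.51% of all genes were called higher, 3 were (CSTB, DPP7 and NEU1). Of the 35, 23 had a log2 fold change above 0 and 12 below, with a median of 0.080 against -0.0021 over all genes tested. The highest of them was 0.37, against 2.04 for CTSB. Since CTSB was chosen for its change in this comparison, nothing is read from that difference.

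Among 16 inhibitors 8 had 0 counts in every library and 3 were tested, all with a log2 fold change above 0. Cystatin B (CSTB), the cytosolic inhibitor that binds cathepsin B, was at 143 and 137 CPM in siControl and at 162 and 202 CPM in siLOC730101 (0.37, SE 0.095, adjusted p = 0.116 in edgeR). Cystatin C (CST3), the main secreted inhibitor, was at 188 and 195 CPM in siControl and at 193 and 253 CPM in siLOC730101 (0.22, adjusted p = 0.461). The siLOC730101 libraries of CSTB were both the higher ones, and those of CST3 overlapped with siControl. Cystatin A (CSTA), which is related to CSTB, was at 1.17 to 2.95 CPM and not called (adjusted p = 0.841), and CST7, cystatin F, was at 0.0974 CPM or less and not tested.

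Among 11 genes of sorting to the lysosome, all tested, 7 were above 0 and 4 below with a median log2 fold change of 0.023. The mannose 6-phosphate receptors IGF2R (0.011, adjusted p = 0.984 in edgeR) and M6PR (0.15, adjusted p = 0.620) and the phosphotransferase subunits GNPTAB (0.043, adjusted p = 0.913) and GNPTG (0.25, adjusted p = 0.343), which make the tag, were not called. Among 8 genes of maturation and partners the median was 0.098. PSAP, the precursor of the saposins (-0.015, adjusted p = 0.966), LGMN, the legumain that cleaves cathepsin proenzymes (-0.0033, adjusted p = 0.997), TPP1, a tripeptidyl peptidase (0.16, adjusted p = 0.455), and DPP7, a dipeptidyl peptidase (0.34, adjusted p = 0.119), were not called either. The partners of CTSA, named after their values were seen, gave 0.11 (GLB1, beta-galactosidase, adjusted p = 0.696) and 0.37 (NEU1, neuraminidase 1, adjusted p = 0.169).

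Among 8 regulators, of which 7 were tested, 6 were above 0 with a median log2 fold change of 0.12. TFE3 gave 0.12 (adjusted p = 0.656 in edgeR), FLCN and FNIP1, which hold TFE3 and TFEB in the cytosol, gave 0.041 and 0.066 (adjusted p = 0.933 and 0.850), and FNIP2 gave 0.22 (adjusted p = 0.539). TFEB itself, named after its values were seen, was at 10.3 and 10.8 CPM in siControl and at 12.6 and 13.1 CPM in siLOC730101 (0.28, adjusted p = 0.554). Among 12 genes of pericellular proteolysis, the cell-surface cascade in which cathepsin B can activate urokinase, 4 had 0 counts in every library, among them PLAU (urokinase itself) and S100A10, and 6 were tested with a median of -0.32. The urokinase receptor PLAUR gave -0.55 (SE 0.76, adjusted p = 0.870) from 8 to 39 counts in a library. The tissue plasminogen activator PLAT gave -0.96 (SE 0.72, adjusted p = 0.693) from 9 to 67 counts. With so few counts neither these values nor the median of the list can be read closely. The metalloprotease inhibitors TIMP2 and TIMP3 gave 0.095 and -0.077 (adjusted p = 0.802 and 0.977).

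**Figure D4:**
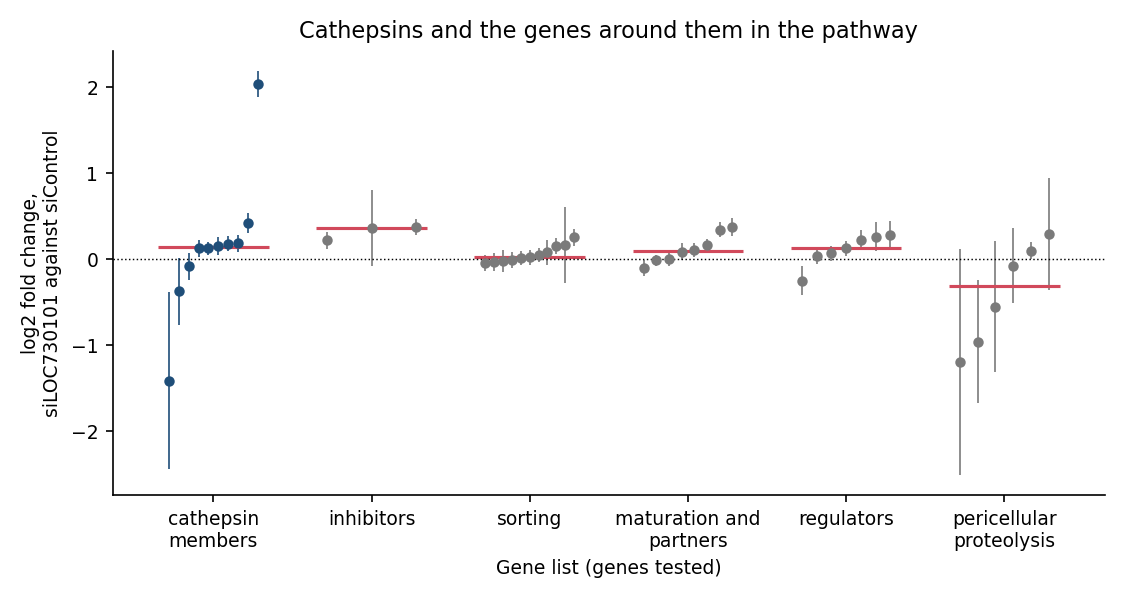
The log2 fold changes, siLOC730101 against siControl, of the tested genes of the 5 lists, in a column for each list with bars for the standard error and a red line at the median, beside those of the 10 cathepsin genes. CTSB, chosen on this contrast, is at 2.04, and the highest point of the lists is at 0.37.

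CTSB lies on the minus strand of chromosome 8 from 11842524 to 11869533 in GRCh38, with 19 separate exon blocks in the table and no exon base shared with another gene. The other 9 genes lie on 6 other chromosomes. CTSC (from 88265069 to 88359684), CTSD (from 1752752 to 1764573) and CTSF (from 66563464 to 66568879) are on chromosome 11, and CTSA (from 45890144 to 45898949) and CTSZ (from 58985686 to 59008238) are on chromosome 20. CTSH is on chromosome 15 from 78921058 to 78949574, CTSL on chromosome 9 from 87724051 to 87731469, CTSO on chromosome 4 from 155921580 to 155953912, and CTSS on chromosome 1 from 150730079 to 150765957.

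The 4 nearest tested genes on each side of CTSB were not called (edgeR, adjusted p = 0.255 to 0.997). FDFT1, squalene synthase, ends 3.22 kb away and was at 3.33 and 2.93 CPM in siControl and at 1.78 and 2.63 CPM in siLOC730101, in the opposite direction to CTSB and without overlap (log2 fold change -0.51, adjusted p = 0.620). NEIL2, a DNA glycosylase at 55.2 kb, was at 22.0 and 9.17 CPM in siControl and at 28.2 and 24.7 CPM in siLOC730101 (0.76, adjusted p = 0.255). The siControl libraries of NEIL2 differed from each other by more than those of CTSB. The other 6, at 246.2 to 495 kb, gave log2 fold changes of 0.011 (FAM86B1) to 0.67 (ENSG00000255495).

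**Figure D5:**
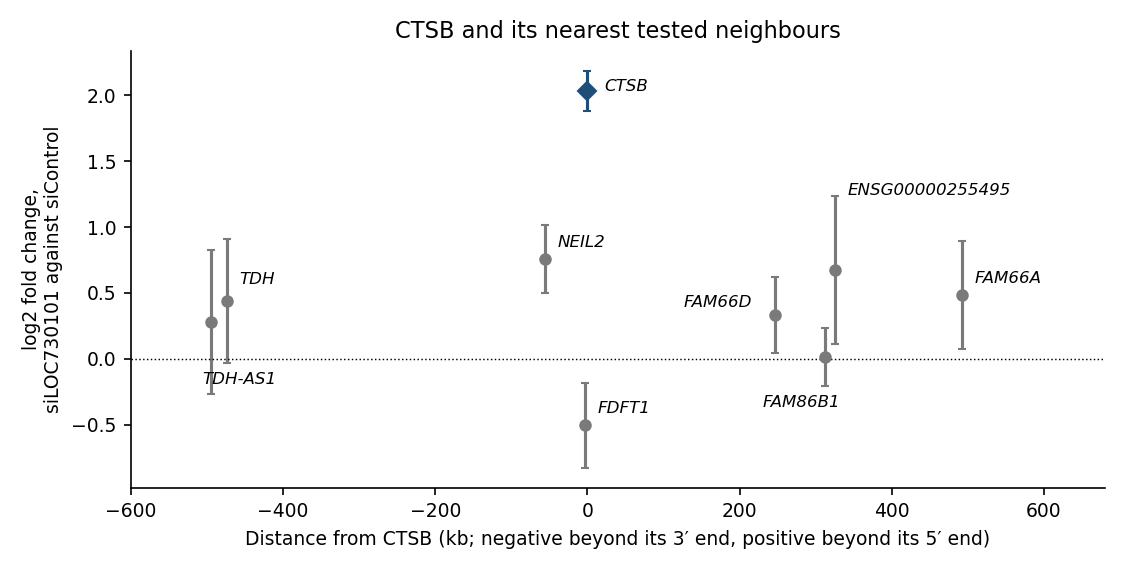
The log2 fold changes, with standard errors, of CTSB and of the 4 nearest tested genes on each side, against the distance from CTSB in kilobases. CTSB, chosen on this contrast, is at 2.04, and the 8 neighbours lie between -0.51 (FDFT1) and 0.76 (NEIL2).

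The gene whose profile over the 4 libraries was nearest to that of CTSB was ARHGEF26, a guanine nucleotide exchange factor gene on chromosome 3. The measure was the Euclidean distance between log2 CPM values centred on each gene's mean, over 14502 genes, and it was 0.373 for ARHGEF26 against a median of 2.07. The measure uses the 4 libraries of the comparison, so a gene near to CTSB must differ between the groups as CTSB does. ARHGEF26 was at 13.1 and 15.7 CPM in siControl and at 48.9 and 44.3 CPM in siLOC730101, and no other gene lay within 0.5 of CTSB. The next were GPX1P1 (0.709), CALML6 (0.785), ENSG00000290049 (0.788) and NDUFA7 (0.820), all with few counts (20 to 129 in a library) and none called in edgeR (adjusted p = 0.154, 0.175, 0.092 and 0.221).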

How the data were processed

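Poly(A) RNA of 4 DaroR libraries, 2 siControl and 2 siLOC730101, was analysed. The deposited values are counts per gene, which the authors made with featureCounts 2.0.1 and did not normalize. Trim Galore came first, and the aligner is STAR in the methods and BWA in the submitters' processing notes. The table header names hg38 and gencode 41, while the methods name an earlier build and release. Neither pairing of mates nor strand was set in the counting command, and 66.0% to 70.1% of counts between 1 and 20 were even. The 2 mates of a fragment may thus have been counted apart. Counts may then exceed the fragments behind them, and low counts may rest on fewer fragments than they show. Halved counts were run for this reason. At its defaults featureCounts leaves out reads that overlap more than 1 gene. All columns were matched to the 4 libraries by name, and groups follow the sample titles.

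The counts were filtered with filterByExpr (19349 genes kept), scaled with TMM factors (0.969 to 1.01) and compared with the quasi-likelihood test of edgeR 4.0.16 in R 4.3.3, with Benjamini-Hochberg adjusted p under 0.05 as the threshold. DESeq2 1.42.0 was an alternative, as were other scalings, filters and quasi-likelihood settings, halved counts, a replicate block and leaving out each library. The authors used DESeq2 too, in a version not given. CPM is the count per 1000000 of the library's counts in genes kept, scaled by its TMM factor. Totals were 53368158 and 46271037 counts in siControl and 40885634 and 39213498 in siLOC730101, so that 1 CPM rests on 37.97 to 54.06 counts. The procedure was tested on simulated data.

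The 10 genes and all gene lists were chosen with earlier results of these data known. Besides the 10, the genes named were the other cathepsins, genes sharing exon bases with a member, in each list the called genes and up to 4 with the highest CPM per kilobase, the 4 nearest tested genes on each side of CTSB and the 5 nearest profiles among genes at 1 CPM or more. GLB1, NEU1, TFEB, PLAU, S100A10 and the genes ranked beside CTSB were added after their values were seen. Sequences are from RefSeq (GRCh38.p14) and, for 3′ UTRs, from MANE Select transcripts on GRCh37, the genome given, and no coordinate was converted. Some markers of luminal prostate cells are not reported here.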

Additional observations from a re-analysis of the deposited data

How the results depend on the processing

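CTSB kept its direction in all 14 alternative settings, with log2 fold changes of 1.83 to 2.27. These settings use the same libraries on which CTSB was chosen, so nothing is read from this. CTSA, CTSD, CTSH, CTSL, CTSS and CTSZ kept their sign wherever they were tested, and CTSC, CTSF and CTSO changed sign when single libraries were left out. Without siLOC730101 replicate 2, CTSD and CTSL came near 0 as CTSF did, with log2 fold changes of 0.023 and 0.012. The sign of CTSS was favoured by its entry through siControl alone. How many genes were called depended on the settings. Against 41 higher and 14 lower, the counts were 324 and 113 with every gene of at least 1 count, 133 and 40 with 10 counts in every library, 87 and 24 without the legacy quasi-likelihood, 113 and 35 with halved counts, 234 and 63 with DESeq2, and 35 lower with library size only. Leaving out each library gave 77 to 923 higher and 26 to 272 lower. Of the 5 lists, 2 genes were called higher with every gene of at least 1 count, 1 with 10 counts in every library, 2 with DESeq2 and 0 to 4 with each library left out, against 0. The cause was not tested. A replicate block called 485 genes higher, 167 lower and 3 of the lists, but the deviations of same-numbered libraries correlated at -0.000896, so the numbers are not taken to pair the libraries. With MANE Select lengths, chosen after seeing the data, the CTSB share differed by 2.27 percentage points in place of 3.41. With 2 libraries a group from 1 line, the spread behind each value rests on few libraries, and where a library was left out 1 group had none of its own.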
